A study of Mus musculus with 29 samples.

Results

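The E2F transcription factors and the E-type cyclins were followed in mouse prostates as 10 genes, E2f1 to E2f8 with Ccne1 and Ccne2. They are defined by symbol and the rule uses no measured value, but the members were chosen with earlier results of these data known. Of these 10 genes, 9 had a probe in the annotation of the array, and all 9 were among the 10768 genes tested. E2f8 was not analysed here. The 9 genes had 14 of the 25697 probes, and each gene is described by the probe detected on most arrays.

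Most E2F proteins bind DNA as dimers with a DP partner, and the family controls genes that a cell needs to copy its DNA. E2F1, E2F2 and E2F3 act mainly as activators, E2F4 and E2F5 act mainly as repressors with the pocket proteins RB, p107 and p130, and E2F6, E2F7 and E2F8 repress without a pocket protein. Cyclin E1 and cyclin E2 bind CDK2, which phosphorylates the pocket proteins and so frees E2F, and both cyclin genes are themselves E2F targets. Large T antigen of SV40 binds the pocket proteins and releases E2F from them, which matters here because every mouse of the series carried it.

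RNA came from the prostates of 29 male mice, and each mouse had its own array (Illumina MouseRef-8 v2.0). TRAMP mice (C57BL/6-tgN (TRAMP)8247Ng) express T antigen from the rat probasin promoter, which androgens switch on in prostate epithelium, and Opn-/-_TRAMP mice (B6.tgN (TRAMP)8247Ng Spp1<tm1Blh>/J) carry the same transgene and lack osteopontin. OPT-tm were 3 Opn-/-_TRAMP prostates with a palpable neuroendocrine (NE) tumor at 18 weeks of age, and T30 were 4 TRAMP prostates with a palpable adenocarcinoma at 30 weeks. Prostates without a palpable tumor, called lesion-free below, were T18 (4 TRAMP, 18 weeks), OPT18 (13 Opn-/-_TRAMP, 18 weeks) and OPT15 (5 Opn-/-_TRAMP, 15 weeks). The name does not mean healthy tissue. The study describes T18 as having null or minimal disease, and its histology reported lesions in prostates of both genotypes from 18 weeks of age. The labels further divide the lesion-free prostates into Ineuntes, with 4 OPT18 and 1 OPT15, and Reliquia, with 9 OPT18, 4 OPT15 and all 4 T18. No group lacked T antigen, no group was wild type, and OPT-tm and T30 differed in age and genotype as well as in histotype. The labels give more lesion-free OPT18 mice than the text of the study. Spp1, the osteopontin gene, was not analysed here, so the deletion was not checked.

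Between 38.7% and 51.8% of all probes were detected per array at a detection p-value under 0.01, with 47.1% to 51.8% on chips 1 and 2 and 38.7% to 41.9% on chips 3 and 4. Every chip held 1 T30 and 1 T18 array, and chips 1, 2 and 3 held 1 OPT-tm array each. T30 arrays always lay at one position of the chip and T18 arrays at another, so position and group cannot be told apart for these. Values below are log2 signals after quantile normalization, and a difference of 1 is a 2-fold change. SE below is the standard error of a log2 fold change. A gene passed the test at a Benjamini-Hochberg adjusted p under 0.05 from limma over all 10768 genes, and it was called when it also changed at least 2-fold. Precision is limited by how many arrays each group has. The labels do not say whether mice shared a litter. Mice are numbered within a group, and the numbers do not pair mice across groups.

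Markers of cell types checked the labels. Of 9 NE genes, 8 were detected on every OPT-tm array and 7 on no T30 array, and their summed log2 signal was 16.91 to 17.07 in OPT-tm and 11.08 to 11.18 in T30. Of 8 luminal genes, 6 were detected on every OPT-tm array, but Pbsn, the probasin gene, was detected on none. In T30, 4 of the 8 were detected on every array and Pbsn on 1 of 4. Pbsn did not pass between the tumors (log2 fold change -0.59, adjusted p = 0.52 from limma). Of the 8 luminal genes, 4 passed as lower in OPT-tm, 1 passed as higher and 3 did not pass. Krt8 (-3.56), Krt18 (-2.88) and Tmprss2 (-2.94) were lower by at least 2-fold. The summed luminal signal was 16.03 to 16.71 in OPT-tm and 17.03 to 17.45 in T30. The basal genes Krt5, Krt14 and Trp63 were detected on no OPT-tm array, while all 4 basal genes were detected on every T30 array. In whole prostates fewer cells of a type and less RNA per cell cannot be told apart.

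The windows around the start of transcription give the sequence context of these genes. RefSeq windows on GRCm38.p6 were at hand for 7 of the 10 genes, from 250 bases before to 50 after a start site. The E2F words TTTCCCGC, TTTCGCGC, TTTGCCGC and TTTGGCGC were searched on both strands. At least 1 of these words was found in 2.26% of 32851 windows of the same length, and in windows of E2f2, E2f3 and E2f7. The windows of E2f2, which rose most, of Ccne1, which also rose, and of E2f3, which did not pass the test in either tumor comparison, are shown 5′ to 3′ on the strand of the gene, with E2F words in capitals. They lie at chr4:136172024-136172323 on the plus strand (E2f2), chr7:38107441-38107740 on the minus strand (Ccne1) and chr13:29986014-29986313 on the minus strand (E2f3), each at or within 1 base of the outermost start of its gene. E2f2 and E2f3 each had a further window at an inner start, without an E2F word.
E2f2: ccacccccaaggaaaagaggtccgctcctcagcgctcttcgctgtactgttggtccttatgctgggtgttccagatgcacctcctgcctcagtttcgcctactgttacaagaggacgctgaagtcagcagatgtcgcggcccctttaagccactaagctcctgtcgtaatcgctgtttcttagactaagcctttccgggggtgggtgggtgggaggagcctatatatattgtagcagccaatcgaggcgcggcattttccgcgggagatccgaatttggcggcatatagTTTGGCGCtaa
Ccne1: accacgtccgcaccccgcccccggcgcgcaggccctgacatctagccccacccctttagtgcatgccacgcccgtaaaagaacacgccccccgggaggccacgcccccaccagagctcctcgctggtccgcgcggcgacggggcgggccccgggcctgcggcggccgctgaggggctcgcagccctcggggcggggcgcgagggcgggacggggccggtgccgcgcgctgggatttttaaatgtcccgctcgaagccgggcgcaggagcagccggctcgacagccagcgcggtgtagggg
E2f3: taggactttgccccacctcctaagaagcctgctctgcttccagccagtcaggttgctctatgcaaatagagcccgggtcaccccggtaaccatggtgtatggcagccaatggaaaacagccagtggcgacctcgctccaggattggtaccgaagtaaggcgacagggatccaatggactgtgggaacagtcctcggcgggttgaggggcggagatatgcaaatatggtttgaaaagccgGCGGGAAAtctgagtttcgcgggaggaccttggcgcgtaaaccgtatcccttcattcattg
The word of E2f2 began at base 40 after the start site and read with the gene, and that of E2f3 began 11 bases before it and read on the other strand. The window of Ccne1 held none of the exact words, nor did that of E2f1, which lay inside the gene rather than at its outermost start. No match says only that these letters were not in these 300 bases, and a match is no evidence of binding.

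Which members separate the NE tumors from adenocarcinoma and from lesion-free glands of the same genotype was asked first. The activators E2f1 and E2f2 and both E-type cyclins were called higher in OPT-tm than in T30, which makes 4 of the 9 members, while 11.5% of all genes were called higher and 24.1% were called in either direction. In all, 6 members rose (21.4% of all genes rose), E2f5 fell (21.7% of all genes fell) and E2f3 and E2f4 did not pass. In 7 of the 9 members the groups did not overlap, as in 48.9% of all genes. Against lesion-free OPT18, of the same genotype and age, 3 members were called higher, beside 12.3% of all genes called higher and 25.8% called in either direction. In this comparison 6 members rose and 2 fell, as did 32.2% and 32.3% of all genes, and 6 members did not overlap, as 43.8% of all genes. In both comparisons the members that rose include E2f7, which was detected in OPT-tm alone. The members' median log2 fold change was 0.70 against T30 and 0.79 against OPT18, and that of all genes was -0.03 and -0.01. Both comparisons share the OPT-tm arrays, so their values stand side by side here and are not independent.

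E2f1 (Entrez 13555, chr2:154559400-154569892) codes for the founding activator of the family. Its log2 signal was 13.44, 12.88 and 13.93 in OPT-tm mice 1, 2 and 3 (on chips 1 to 3), and 12.14, 11.46, 11.94 and 12.12 in T30 mice 1 to 4 (on chips 1 to 4). In lesion-free OPT18 it ran from 11.32 to 12.19 with a median of 11.58. Every OPT-tm prostate lay above every other prostate. E2f1 was 2.84-fold higher than in T30 (log2 fold change 1.5 with SE 0.27, adjusted p = 0.00253 from limma). Against OPT18 it was 3.34-fold higher (log2 fold change 1.74 with SE 0.20, adjusted p = 4.55e-07).

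E2f2 (Entrez 242705, chr4:136172274-136196057), an activator with roles in S phase entry and in blood and immune cells, had the largest difference of the members. Its log2 signal was 13.56, 12.89 and 14.15 in OPT-tm and 10.92, 9.68, 10.57 and 10.93 in T30, in the same order of mice. In OPT18 it ran from 10.17 to 12.10 with a median of 10.37, so the highest lesion-free prostate came within 1 log2 unit of the lowest tumor. E2f2 was 8.03-fold higher than in T30 (log2 fold change 3.01, 95% interval 2.14 to 3.87, adjusted p = 0.000375 from limma) and 6.99-fold higher than in OPT18 (log2 fold change 2.81, 95% interval 2.08 to 3.54, adjusted p = 1.15e-06). Among all genes E2f2 had rank 132 by rise in this comparison and rank 176 against T30. A separate probe for E2f2, detected on all 29 arrays, gave 2.97 against T30 and 2.68 against OPT18. The remaining E2f2 probe was detected on no array.

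E2f3 (Entrez 13557, chr13:29906575-29986064), an activator that can also drive entry into S phase, did not follow the other activators. It gave 9.52, 9.11 and 9.01 in OPT-tm, which spans the 9.05 to 9.34 of T30 and overlaps the 8.86 to 9.46 of OPT18. Its log2 fold change was 0.02 against T30 (95% interval -0.37 to 0.42, adjusted p = 0.927 from limma) and -0.03 against OPT18 (95% interval -0.30 to 0.23, adjusted p = 0.83). These intervals leave out a 2-fold change in either direction. E2f3 was detected on 26 of 29 arrays, close to background.

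Ccne2 (Entrez 12448, chr4:11190433-11204779), the gene of cyclin E2, had a log2 signal of 12.18, 12.60 and 11.92 in OPT-tm and of 10.15, 9.73, 9.85 and 9.95 in T30. In OPT18 it ran from 8.81 to 11.17 with a median of 9.29. Every NE tumor lay above every other prostate. Ccne2 was 4.98-fold higher than in T30 (log2 fold change 2.31, 95% interval 1.87 to 2.76, adjusted p = 5.04e-05 from limma) and 6.34-fold higher than in OPT18 (log2 fold change 2.67, 95% interval 1.89 to 3.44, adjusted p = 4.41e-06).

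Ccne1 (Entrez 12447, chr7:38097984-38107490), the gene of cyclin E1, lay close to background in several prostates and changed by a smaller factor. Its log2 signal was 9.49, 10.05 and 9.81 in OPT-tm and 9.02, 8.66, 8.66 and 8.60 in T30, where it was detected on 2 of 4 arrays. In OPT18 it ran from 8.57 to 9.24, with detection on 10 of 13 arrays. The NE tumors again lay above both groups. At 2.07-fold against T30 (log2 fold change 1.05 with SE 0.19, adjusted p = 0.00223 from limma) Ccne1 was just past the call. Against OPT18 it passed without a call, at 1.81-fold (log2 fold change 0.85 with SE 0.13, adjusted p = 1.20e-05). Ccne1 fell under 2-fold against T30 without OPT-tm mouse 2 (0.92), and background correction with neqc raised it to 1.70 against T30 and 1.32 against OPT18.

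**Figure D1:**
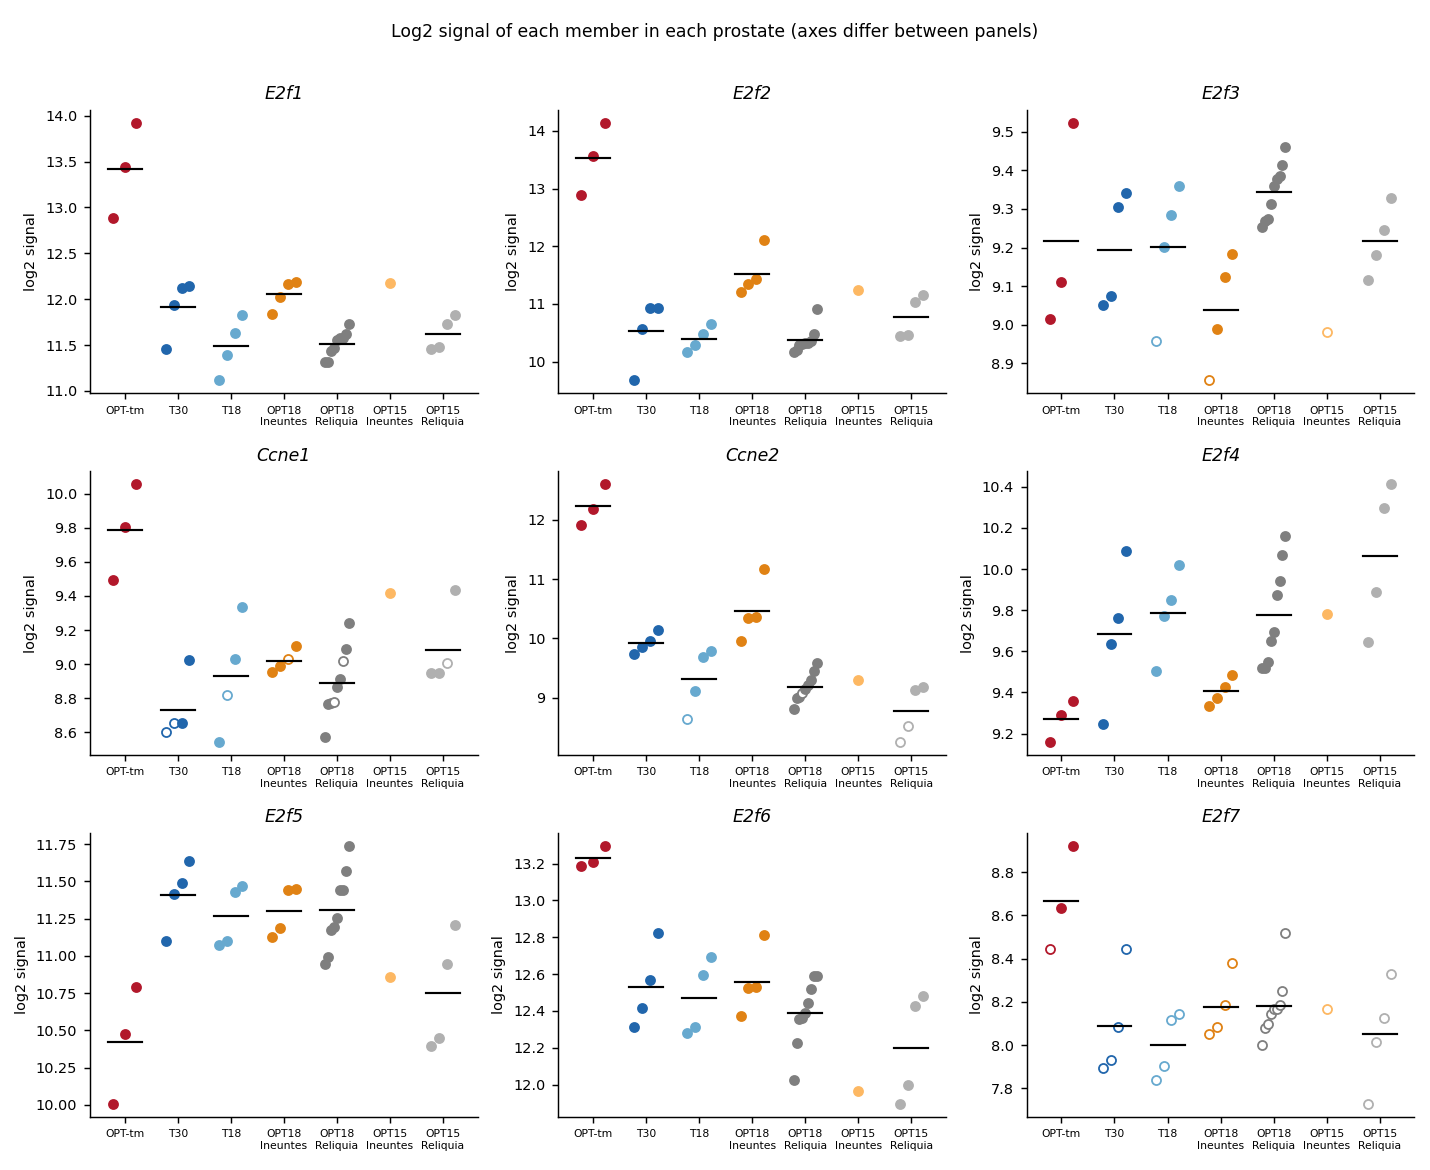
Log2 signal (vertical axis, own scale in each panel) of the 9 members in each of the 29 prostates, by group along the horizontal axis. Filled points were detected at p under 0.01, open points were not, and lines are group means; the OPT-tm points of E2f1, E2f2, Ccne1, Ccne2 and E2f6 lie above all other points, and those of E2f5 and E2f4 lie at the low end.

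The repressors did not move as one. E2f6 (Entrez 50496, chr12:16810909-16826752), which represses through polycomb complexes, was higher in the NE tumors. Its log2 signal was 13.29, 13.19 and 13.21 in OPT-tm, 12.82, 12.31, 12.41 and 12.57 in T30, and 12.03 to 12.81 in OPT18, with no overlap. E2f6 changed by 0.70 on the log2 scale against T30 (standard error 0.16, adjusted p = 0.00832 from limma) and 0.79 against OPT18 (standard error 0.12, adjusted p = 1.38e-05). Further E2f6 probes gave 0.83 and 0.91 against T30 and 0.88 and 0.96 against OPT18, so all 3 probes stayed under 2-fold. With array medians set equal in place of quantile normalization E2f6 did not pass against T30 (0.90, adjusted p = 0.081 from limma).

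E2f5 (Entrez 13559, chr3:14578602-14606309), a partner of p130 in resting cells, fell. It gave 10.79, 10.47 and 10.01 in OPT-tm, 11.49, 11.42, 11.10 and 11.64 in T30, and 10.95 to 11.74 in OPT18, again with no overlap. Its log2 fold change was -0.99 against T30 (standard error 0.22, adjusted p = 0.00691 from limma), just under 2-fold, and -0.88 against OPT18 (standard error 0.16, adjusted p = 8.97e-05). After neqc it was -1.13 against T30 and -1.02 against OPT18, past 2-fold, and with array medians set equal it did not pass against T30 (-0.78, adjusted p = 0.123). The lesion-free OPT15 prostates reached down to 10.40 and overlapped with the NE tumors.

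E2f4 (Entrez 104394, chr8:105297663-105305370), which carries much of the E2F activity of resting cells, gave 9.36, 9.16 and 9.29 in OPT-tm and 9.76, 9.24, 9.64 and 10.09 in T30, with an overlap. Its log2 fold change of -0.41 against T30 did not pass (standard error 0.20, adjusted p = 0.137 from limma), though it passed without T30 mouse 2 (-0.56, adjusted p = 0.0347). Against OPT18 (9.34 to 10.16) it was -0.39 (standard error 0.16, adjusted p = 0.035), and this pass ended without any single OPT-tm mouse (highest adjusted p = 0.13).

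E2f7 (Entrez 52679, chr10:110745439-110787384), an atypical repressor without a DP partner, was at background in most prostates. It was detected in OPT-tm mice 1 (8.63) and 3 (8.92) but not in OPT-tm mouse 2 (8.45) or in any other prostate. Its fitted difference passed against T30 (adjusted p = 0.0379 from limma) and against OPT18 (adjusted p = 0.00081). E2f7 entered the test only through its detection on 2 OPT-tm arrays, so these passes are no support for a rise. No fold is given, since the other groups have no level above background and the mean of OPT-tm was not above that bound. Against T30 the pass ended with the chip as a block (adjusted p = 0.121) and when 1 mouse was left out, for 5 of the 7 mice (highest adjusted p = 0.12).

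Within a chip, the difference of the OPT-tm and T30 mouse had one direction on chips 1, 2 and 3 for 8 of the 9 members. The exception was E2f3. The 8 include E2f4, at only -0.08 on chip 2, and E2f7, which was detected on no T30 array. The share of all genes with one direction is not given, so the count stands as a description. The difference was 1.30, 1.43 and 1.99 for E2f1, 2.64, 3.20 and 3.57 for E2f2, and 2.04, 2.87 and 2.07 for Ccne2. For Ccne1 it was 0.47, 1.4 and 1.15, so the pair of chip 1 was under 2-fold. For E2f5 it was -0.70, -0.94 and -1.09, and for E2f6 0.47, 0.87 and 0.80. With the chip as a block the log2 fold changes against OPT18 were 1.66 for E2f1, 2.71 for E2f2, 2.82 for Ccne2 and 0.93 for Ccne1.

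Other cell types moved with these differences. All 9 NE genes passed as higher against T30 (median log2 fold change 4.2), while 7 of 8 smooth muscle genes (median -2.69), 4 of 4 basal genes (-2.30), 7 of 7 seminal vesicle genes (-5.41), 6 of 8 fibroblast genes (-1.82) and 9 of 9 macrophage genes (-0.97) passed as lower. In these medians the 7 NE genes undetected in T30, and the 2 smooth muscle, 3 basal and 4 seminal vesicle genes undetected in OPT-tm, stand at the bound of their fold, or at 0 where the bound was under 1. Of 8 luminal genes 4 were lower and 1 was higher, of 4 lymphocyte genes 3 were lower, and of 7 endothelial genes 1 was higher. The summed smooth muscle signal was 14.76 to 15.12 in OPT-tm, 17.10 to 17.35 in T30 and 17.06 to 17.40 in OPT18, and that of seminal vesicle genes was 10.90 to 11.65, 11.76 to 18.62 and 17.83 to 18.42. The part of these cells in the differences of the members was not tested.

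**Figure D2:**
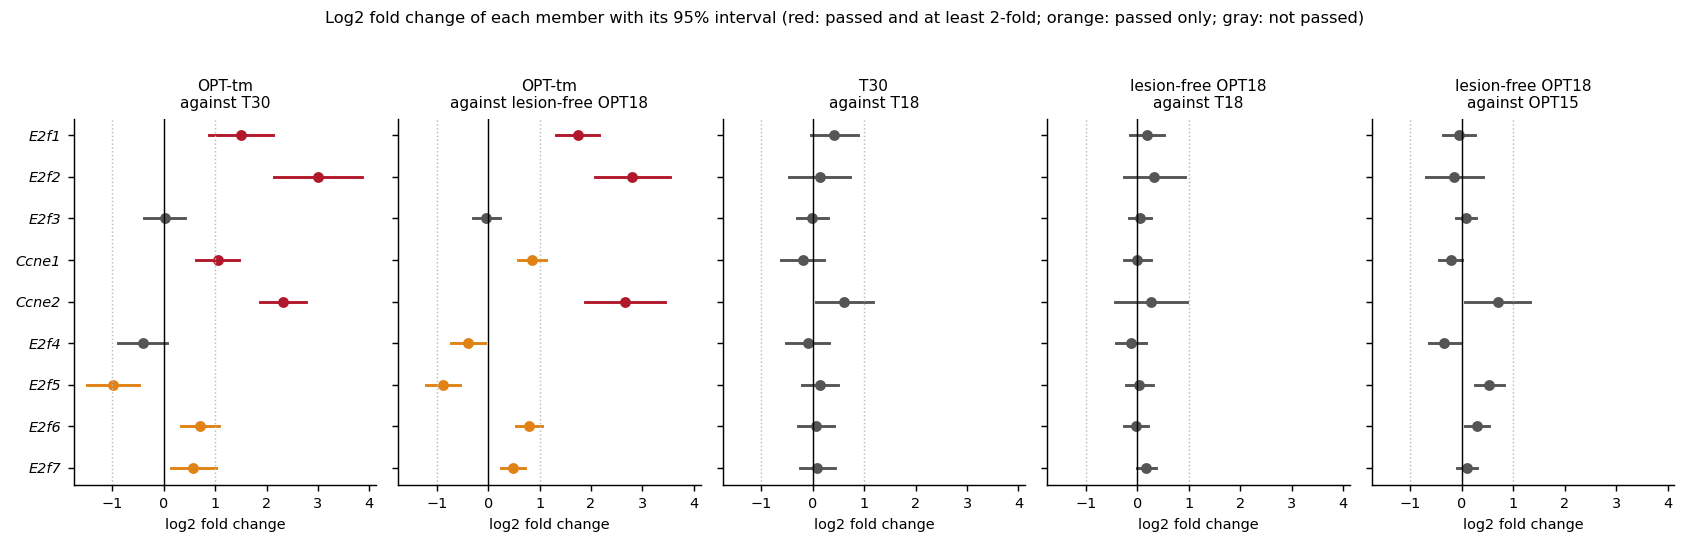
Log2 fold change (horizontal axis) of the 9 members with 95% intervals in the 5 comparisons, with dotted lines at 2-fold. Red members passed and changed at least 2-fold, orange members passed, and gray members did not pass; called members are found in the OPT-tm panels, 4 against T30 and 3 against OPT18, and none in the other panels.

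Whether adenocarcinoma differed in the same genes from TRAMP prostate without a palpable tumor was asked with T30 against T18. Age and tumor differ together there, and early disease in T18 is not excluded by the labels. No member was called or passed, while 1.49% of all genes were called and 2.23% passed. The smallest adjusted p among the members was 0.239 from limma (Ccne2), and Ccne2 was the 1 member with an unadjusted p under 0.05, as 17.6% of all genes had. Its log2 signal in T18 was 9.69, 9.79, 9.12 and 8.63 in mice 1 to 4, against 10.15, 9.73, 9.85 and 9.95 in T30. The difference was 0.61 (95% interval 0.06 to 1.16), with an overlap of the groups. E2f1 gave 0.42 (95% interval -0.03 to 0.87, adjusted p = 0.318) and was higher in T30 on each of the 4 chips, by 0.74, 0.34, 0.12 and 0.49. E2f2 gave 0.13 (95% interval -0.47 to 0.73, adjusted p = 0.854), with both signs among the chips. Ccne1 gave -0.20 (95% interval -0.61 to 0.21). For these 4 genes and for E2f3 (-0.01), E2f4 (-0.10), E2f5 (0.14) and E2f6 (0.06) the upper ends of the intervals lie under a 2-fold rise, except for Ccne2.

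The difference between both tumor effects was then tested directly, as OPT-tm minus lesion-free OPT18 against T30 minus T18, a test added after the data had been seen. It passed for 6 of the 9 members, and for 44.7% of all genes. The difference was 1.32 for E2f1 (standard error 0.30, adjusted p = 0.000955 from limma), 2.67 for E2f2 (standard error 0.50, adjusted p = 0.000132), 2.05 for Ccne2 (standard error 0.52, adjusted p = 0.00242) and 1.05 for Ccne1 (standard error 0.21, adjusted p = 0.000312). It was 0.73 for E2f6 (adjusted p = 0.00284) and -1.02 for E2f5 (adjusted p = 0.001), neither of which passed with array medians set equal (0.83, adjusted p = 0.139, and -0.89, adjusted p = 0.0926). E2f3, E2f4 and E2f7 did not pass (adjusted p = 0.923, 0.36 and 0.0668). Genotype and age differ between these pairs together with the histotype and cannot be told apart from it.

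In lesion-free TRAMP prostate at 18 weeks, E2f1, E2f2, E2f4, E2f5 and E2f6 were detected in all 4 mice, E2f3, Ccne1 and Ccne2 in 3 of 4, and E2f7 in none. E2f1 had a log2 signal of 11.49 ± 0.30 (SD, n = 4), with 11.40, 11.12, 11.82 and 11.63 in mice 1 to 4. E2f2 had 10.40 ± 0.21 (SD, n = 4) and ran from 10.17 to 10.65. The pocket protein partners had 9.79 ± 0.22 (E2f4) and 11.27 ± 0.21 (E2f5), and E2f6 had 12.47 ± 0.21. For E2f3 the level was 9.20 ± 0.17, for Ccne1 8.93 ± 0.33 and for Ccne2 9.31 ± 0.54, the widest spread of these genes in T18. Signals of different probes are not on a common scale and give no order among the genes. These are levels of glands that express T antigen, and no gland without it was at hand for comparison.

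Loss of osteopontin without a palpable tumor was compared in OPT18 against T18. No member was called or passed, while 0.0279% of all genes were called and 0.0464% passed. No member had an unadjusted p under 0.05, against 6.74% of all genes. The largest differences were 0.33 for E2f2 (95% interval -0.26 to 0.92), 0.26 for Ccne2 (95% interval -0.44 to 0.97) and 0.19 for E2f1 (95% interval -0.15 to 0.52), all with adjusted p of at least 0.742 from limma. All 9 intervals leave out a 2-fold change. With Reliquia alone on the OPT18 side these 3 differences were -0.02, -0.13 and 0.02. The study formed such classes by clustering these arrays, and OPT18 Reliquia lay below OPT18 Ineuntes in these 3 genes. Leaving out Ineuntes thus lowers the differences by the choice of mice, and these values are no test of genotype.

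Age was compared in OPT18 against OPT15, where no gene at all passed the test (0% of all genes were called, also with the authors' values or neqc, and 21% had an unadjusted p under 0.05 from limma). Without the Reliquia OPT15 mouse 1 or mouse 2, 4 and 12 genes were called. Of the members, 4 had an unadjusted p under 0.05. Ccne2 gave 0.69 (95% interval 0.06 to 1.33, adjusted p = 0.204 from limma) and E2f4 gave -0.34 (adjusted p = 0.186). E2f6 gave 0.29 (adjusted p = 0.168), but its further probes gave -0.06 and -0.15, and within chips 1 to 4 it was -0.05, -0.04, 0.49 and 0.54. E2f5 gave the largest difference beyond its error, 0.53 (adjusted p = 0.101). E2f5 was 10.95 and 11.21 in the Reliquia OPT15 mice 1 and 2 of chips 1 and 2, and 10.40, 10.45 and 10.86 in the 3 OPT15 mice of chips 3 and 4, where fewer probes were detected. Within chips 1 to 4 its difference was 0.28, 0.04, 0.57 and 0.66, and with the chip as a block it was 0.38 (adjusted p = 0.301). It passed without Reliquia OPT15 mouse 1 (adjusted p = 0.0486) or 2 (adjusted p = 0.0396).

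Ordered by group means, OPT-tm had the highest level of E2f1, E2f2, E2f6, E2f7, Ccne1 and Ccne2 and the lowest of E2f4 and E2f5. Next in order below OPT-tm came T30 for E2f1, E2f6 and Ccne2, OPT15 for E2f2 and Ccne1, and OPT18 for E2f7. The first step was free of overlap for E2f1, E2f2, E2f6, Ccne1 and Ccne2, while E2f7 overlapped there and neighbouring groups overlapped at every further step in all 9 members. E2f3 had all 5 group means between 9.17 and 9.25.

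In some of the same genes the lesion-free Ineuntes prostates lay between Reliquia and the NE tumors. The study formed such classes by clustering these arrays over genes that differ between its tumors, so the values below describe the classes and are no test of them. Within OPT18, Ineuntes and Reliquia did not overlap in 5 of the 9 members, E2f1, E2f2 and Ccne2 being higher and E2f3 and E2f4 lower in Ineuntes, beside 7.44% of all genes (4.85% higher and 2.59% lower). A difference of means of at least 2-fold was found in E2f2 and Ccne2 and in 2.13% of all genes. E2f2 was 11.34, 12.10, 11.20 and 11.43 in Ineuntes mice 1 to 4, and 10.17 to 10.91 in Reliquia with a median of 10.32. The difference of means was 1.15, or 2.21-fold. Ccne2 was 10.35, 11.17, 9.96 and 10.36 against 8.81 to 9.58 (median 9.14), a difference of 1.28 or 2.43-fold. Ineuntes mouse 2 had the highest value of the Ineuntes prostates in both genes. E2f1 differed by less, with 12.19, 12.17, 11.84 and 12.03 against 11.32 to 11.73 and a difference of 0.55. For these 3 genes all Ineuntes values also lay below all OPT-tm values, with means lower by 2.01 (E2f2), 1.78 (Ccne2) and 1.36 (E2f1).

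E2f4 was 9.34 to 9.49 in Ineuntes and 9.52 to 10.16 in Reliquia (difference -0.37), and E2f3 was 8.86 to 9.18 and 9.25 to 9.46 (difference -0.31). Both genes overlapped between Ineuntes and OPT-tm. E2f5, E2f6 and Ccne1 overlapped between the classes, with differences of -0.01, 0.17 and 0.13, and E2f7 was detected in neither. Chips 2 and 4 held 2 mice of each class, and the differences within them were 1.39 and 1.06 for E2f2, 1.53 and 0.98 for Ccne2, 0.68 and 0.49 for E2f1, -0.33 and -0.58 for E2f4 and -0.12 and -0.48 for E2f3. With array medians set equal, E2f2 and Ccne2 stayed apart between the classes and E2f1, E2f3 and E2f4 overlapped.

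At 15 weeks the labels name 1 Ineuntes mouse. Its E2f1 (12.18), E2f2 (11.25) and Ccne2 (9.30) lay above the 4 Reliquia mice of that age (highest 11.83, 11.15 and 9.18). The Ineuntes mouse lay on chip 4, and those 4 Reliquia mice lay on chips 1 to 3. In them E2f2 was 10.45 and 10.46 on chips 1 and 2, and 11.04 and 11.15 on chip 3. Class and chip cannot be told apart at this age, and the share of all genes highest in this mouse is not given. With all 5 Ineuntes against all 17 Reliquia prostates, E2f1 and E2f2 stayed apart, and Ccne2, E2f3 and E2f4 overlapped. The summed signal of the 9 NE genes was 13.85 to 15.43 in the Ineuntes and 11.84 to 13.17 in the Reliquia OPT18 prostates. Its part in the differences of the members was not tested.

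**Figure D3:**
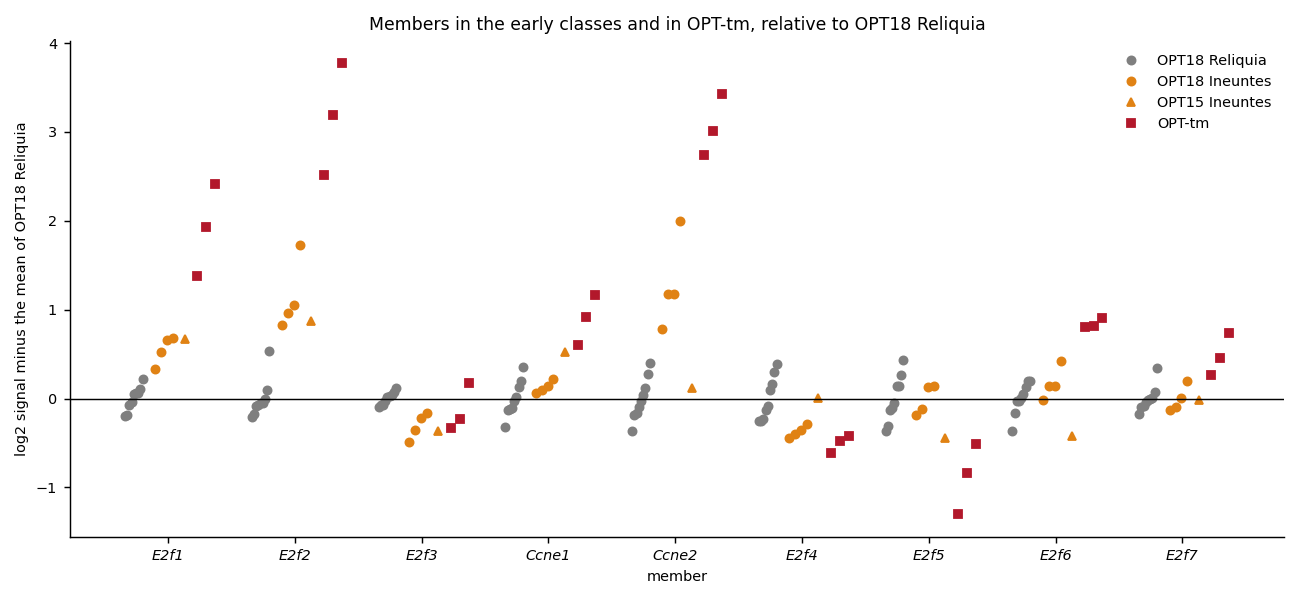
Log2 signal of each member minus the mean of the 9 OPT18 Reliquia prostates (vertical axis), with 1 point per mouse. Circles are OPT18, the triangle is the OPT15 Ineuntes mouse and squares are OPT-tm; Ineuntes lie between Reliquia and OPT-tm for E2f1, E2f2 and, at 18 weeks, Ccne2, but overlap with Reliquia for E2f5 and E2f6.

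Genes that work with E2F or are controlled by it were read from lists in OPT-tm against T30. Of 37 E2F target genes tested, 30 rose and 0 fell, where 21.4% of all genes rose and 21.7% fell. Their median log2 fold change was 1.23 against -0.03 over all genes. Of the 37, 26 were called higher, beside 11.5% of all genes. Of the 37, 2 were detected in no T30 tumor, and with these at the bound of their fold the median was 1.22. The largest were Mybl2, a transcription factor of the cell cycle (3.38, adjusted p = 3.58e-06 from limma), Rrm2, a subunit of ribonucleotide reductase (3.0), and Top2a, a DNA topoisomerase (2.45). Chek1, a checkpoint kinase (-0.14, adjusted p = 0.708), and Mcm6, of the replicative helicase (0.12, adjusted p = 0.739), did not pass. Against OPT18, 33 of the 37 rose and 0 fell (median 1.43), where 32.2% of all genes rose and 32.3% fell. In T30 against T18, OPT18 against T18 and OPT18 against OPT15, 0 of the 37 passed, with medians of 0.20, 0.02 and 0.16. Few genes of any kind passed there, 2.23%, 0.0464% and 0% of all genes in the same order. Between the early classes 17 of the 37 did not overlap, each of them higher in Ineuntes, beside 4.85% of all genes. The median difference was 0.49 over the 37 and -0.05 over all genes. The study formed such classes by clustering these arrays over genes that differ between its tumors, so this is no test. Against T30, 20 of the 37 were called without T30 mouse 2.

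Of the 5 partners and pocket proteins, Rb1, the retinoblastoma gene, was called (1.59, adjusted p = 0.000144 from limma) and Tfdp1, which codes for DP1, passed just under 2-fold (0.99, adjusted p = 0.00902). Tfdp1 is named outside the rule for named genes because of that count. Tfdp2 (-0.10) and Rbl2, the gene of p130 (-0.02), did not pass. In the MuvB and DREAM complexes, which hold cell cycle genes silent or switch them on, 3 of 4 genes were called higher, beside 11.5% of all genes. The called genes were Mybl2 (also in the list of targets), Foxm1 (2.42) and Lin54 (1.19), and Lin37 was not called (0.21).

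Among 13 partners of E2F6 and polycomb genes 5 rose, 1 fell and 7 did not pass (median 0.18), where 21.4% of all genes rose and 21.7% fell. Yaf2, of the PRC1 complexes (2.55, adjusted p = 2.59e-05 from limma), Ezh2, the methyltransferase of PRC2 (1.68), and Suz12, its scaffold (1.32), were called, and Mga and Rnf2 did not pass (-0.00 and -0.04). The gene that fell was Ring1 (-0.60, adjusted p = 0.00848), named after its value was seen.

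Of 10 genes that work with cyclin E, 7 rose and 0 fell, where 21.4% of all genes rose and 21.7% fell. The list includes inhibitors of CDK2 as well as its helpers. The largest rises were Cdkn1b, the gene of p27 (1.96, adjusted p = 1.79e-05 from limma), Cdkn1c, the gene of p57 (1.57), and Skp2, which marks p27 for degradation (1.26). Cdk2 itself, named after its value was seen, passed narrowly (0.53, adjusted p = 0.0496), and Skp1 (0.01) and Cul1 (0.06), of the SCF ligase that turns over cyclin E, did not pass. Between 5 and 6 of the 10 rose under 11 alternatives. In T30 against T18 the 1 gene of this list to pass was Cdkn1a, the gene of p21 (1.69, adjusted p = 0.00108), named after its value was seen. In OPT-tm against OPT18, 3 of the 5 partners and pocket proteins, 4 of the 4 MuvB and DREAM genes, 5 of the 13 polycomb genes and 7 of the 10 cyclin E genes rose, and 0, 0, 1 and 1 fell, where 32.2% of all genes rose and 32.3% fell.

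**Figure D4:**
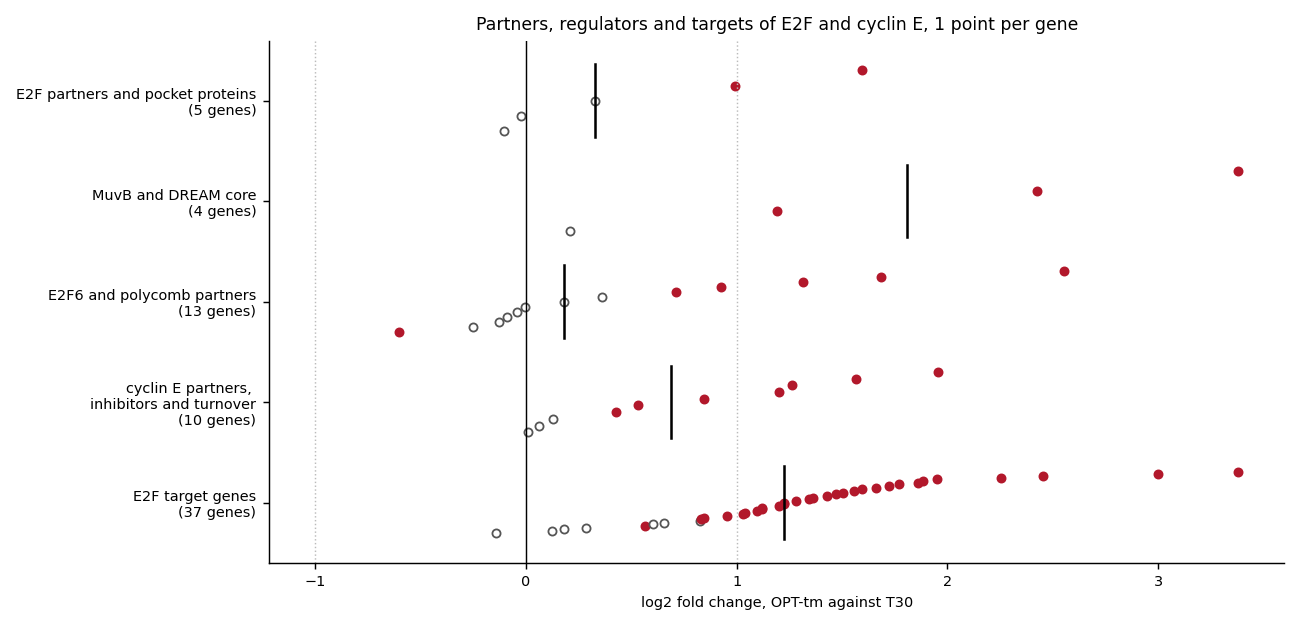
Log2 fold change in OPT-tm against T30 (horizontal axis) of each tested gene in 5 lists, with filled points for genes that passed the test, vertical bars at list medians and dotted lines at 2-fold. Of the 37 E2F target genes 30 points are filled and lie to the right of 0, with the median at 1.23, while the list of E2F6 and polycomb partners has its median at 0.18.

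Likeness of pattern was read over the 17 Reliquia prostates, which leaves out tumors and Ineuntes, as a description of correlated log2 values that share chips and processing. The 3 genes closest to E2f2 were Abcg4 (r = 0.94, rho = 0.84), Klf16 (0.93, rho = 0.81) and Rnpep (0.93, rho = 0.76), and those closest to E2f1 were Fbxl6, Taf15 and Tnrc6c (r = 0.87, 0.86 and 0.86). Around E2f4 were Erf, Commd4 and Taf10 (r = 0.94, 0.92 and 0.92), around E2f5 Vamp7, Tmed2 and Amy1 (r = 0.94, 0.92 and 0.92) and around E2f6 Rnf11, Kbtbd7 and Nxt2 (r = 0.90, 0.88 and 0.87). E2f3 was closest to Map2k4 (r = 0.89). Abcg4 was detected on 12 of the 17 arrays and Erf and Amy1 on 13, so some of their values lay at background. With the chip means removed, the correlation of E2f2 with Klf16 was 0.62 and that of E2f5 with Vamp7 was 0.90.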

How the data were processed

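The authors exported probe signal intensity and a detection p-value without normalization from BeadStudio, and they also deposited log2 values after robust spline normalization with lumi (array medians 8.33 to 8.40). As lumi was not installed, quantile normalization in limma (3.58.1, R 4.3.3) was applied here to log2 of the deposited signals of all 29 arrays, without subtracting background. Of 25697 probes 23978 had 1 gene symbol and 1719 had none. A probe had to be detected (p-value under 0.01) on 1 or more arrays, as 15825 were. Each gene took its most often detected probe, or in a tie the brighter, giving 10768 genes. Groups come from the sample labels. Each of 5 comparisons was fitted with limma (lmFit, eBayes) on its own arrays, and p-values were adjusted over all genes. The fits were tested on simulated data with known shifts. No 2 arrays held identical values. Replicate numbers are in the order of the records and pair no mice.

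The members and the gene lists were chosen with earlier results of these data known. Named list genes were up to 3 called genes with the largest and 2 uncalled genes with the smallest change in OPT-tm against T30, and exceptions are stated. Likeness used members detected on at least 14 of 17 arrays. A gene undetected in one group was to be given as a bound. Alternatives were the authors' log2 values, neqc (offset 16), equal array medians, other filters, probes and fits, the chip as a block, each mouse of groups of 5 or fewer left out, and Reliquia alone. The difference of tumor effects, the mice of the Ineuntes class left out, a detection p-value under 0.05 and the alternatives for gene lists were chosen after seeing the data. Python 3.11.15 and matplotlib 3.10.9 made the plots.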

Additional observations from a re-analysis of the deposited data

Results flagged for a closer look

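In 4 of 45 groups of 4 to 10 prostates 1 mouse lay far from the rest of its group, and chance flags about 1 in 20 groups. Reliquia OPT18 mouse 7 had an E2f2 log2 signal of 10.91, with 10.47 as the next value. Reliquia OPT18 mouse 9 had 8.52 for E2f7 (next 8.25), a signal that was not detected. T30 mouse 1 had 9.02 for Ccne1 (next 8.66), and without it the log2 fold change of OPT-tm against T30 was 1.15 in place of 1.05. Reliquia OPT15 mouse 3 had 9.44 for Ccne1 (next 9.01).

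The tumor effect in Opn-/-_TRAMP mice (OPT-tm minus lesion-free OPT18) differed from that in TRAMP mice (T30 minus T18) in 6 members by the tested interaction. The same test passed for 44.7% of all genes. Genotype, age and histotype differ together between these pairs and cannot be told apart. The differences were 1.32 for E2f1, 2.67 for E2f2, -1.02 for E2f5, 0.73 for E2f6, 1.05 for Ccne1 and 2.05 for Ccne2. Those of E2f5 and E2f6 did not pass with array medians set equal.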

How the results depend on the processing

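Of 640 fitted values of members under the alternatives, 624 kept their direction and side of the threshold or stayed unpassed, 13 no longer passed, 3 newly passed and none that passed changed sign, while 40 values that passed in neither fit changed sign. The count of members called in OPT-tm against OPT18 moved from 3 to 6 with neqc background correction. Calls over all genes in that comparison moved too, from 1321 higher and 1462 lower to 1920 and 2068 with neqc. The count of members called in OPT-tm against T30 was 4 to 6 over all alternatives. Over all genes neqc gave 1662 higher and 1804 lower there, in place of 1243 and 1351. Leaving out single mice gave 4 to 5 members called against T30, 3 to 4 against OPT18 and 0 in each of the other comparisons. Ineuntes and Reliquia did not overlap in 2 members (E2f2 and Ccne2) with array medians set equal and in 2 (E2f1 and E2f2) with all 5 Ineuntes against all 17 Reliquia, against 5 as reported and 5 without any single Ineuntes mouse. At a detection p-value under 0.05, 8 members in place of 5 were detected in all 4 T18 prostates. With array medians set equal, 4 members in place of 7 passed against T30, while E2f5 (-0.78, adjusted p = 0.123 from limma), E2f6 (0.90, adjusted p = 0.081) and E2f7 (adjusted p = 0.0978) did not, nor did the difference of tumor effects for E2f5 (-0.89, adjusted p = 0.0926) and E2f6 (0.83, adjusted p = 0.139). That scaling put the median of all genes in OPT18 against OPT15 at 0.148, in place of 0.0073. All genes called in T30 against T18 were 160 as reported, 83 with array medians set equal, 364 with all arrays in one fit, and 308, 91 and 105 without T30 mouse 1, T30 mouse 3 and T18 mouse 4. Of the called genes 16.2% were higher in T30 as reported and 2.41% with array medians set equal. E2F target genes that rose against T30 numbered 28 to 32 over 11 alternatives, with 20 to 28 called. The causes of these changes were not tested. The labels give no replicate numbers, so no fit paired mice by number, and with the chip as a block the counts of members called stayed at 4 against T30 and 3 against OPT18. Signals near background limit E2f3, E2f7 and Ccne1.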
